A study of Mus musculus with 2 samples.

Results

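Among 9919 quality-filtered cells from mouse lymph nodes, 135 blood endothelial cells carried venous genes above every other subset panel while lacking the Glycam1 level of high endothelium. They were taken by a rule on UMI counts (unique molecular identifiers, tags that mark single captured RNA molecules). A blood endothelial cell had at least 3 UMIs of Flt1, Ly6c1 and Cd34 together, more than of the lymphatic genes Prox1, Pdpn, Mmrn1 and Lyve1, which left 5640 cells. Of these, 380 had 20 or more UMIs of Glycam1, the mucin of high endothelial cells, and were set aside, which left 5260. The 135 members then had a sum of Vwf, Cytl1 and Selp of at least 2 that exceeded the sum of each of 5 other panels. Those panels were arterial (Gja5, Stmn2, Sema3g, Fbln5), 3 capillary (led by Penk and Col13a1, by Scgb3a1 and by Enpp2) and Apln, Prnd and Kit. The remaining 5125 cells are called other blood endothelial cells below.

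Endothelial cells had been sorted from peripheral or mesenteric lymph nodes of WT or Xbp1-KO mice, and all mice had received tamoxifen, WT included. Each of 2 droplet libraries held 4 hashtagged pools, peripheral WT, mesenteric WT, peripheral Xbp1-KO and mesenteric Xbp1-KO, so every group had n = 2 pools, 1 per library. The Cre line, the deleted part of Xbp1, the age of the mice and the number of animals in a pool are not given in the sources used here. Peripheral nodes were pooled before digestion, per the labels' protocols, so a pool is a mixture of nodes. The p-values measure the spread between these pools, which may in part be technical.

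Venous endothelium lines the vessels that collect blood from capillaries. It is the main site where leukocytes leave the blood in inflammation, and in lymph nodes part of it is specialised as high endothelial venules for lymphocyte entry. Its cells store von Willebrand factor, encoded by Vwf, and P-selectin, encoded by Selp, in Weibel-Palade bodies, secretory granules that fuse with the surface within minutes of stimulation. The transcription factor COUP-TFII, encoded by Nr2f2, holds endothelial cells in the venous state, and Ackr1 encodes an atypical chemokine receptor characteristic of venules. Cytl1 encodes a small secreted protein.

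Library 1 held 7709 barcodes and 33024170 gene UMIs, and library 2 held 2903 barcodes and 14744778. The libraries shared 3 barcodes, none of them a member. The 135 members held 623448 UMIs, with a median of 4432 per cell against 2732 in other blood endothelial cells. By pool, library 1 gave 16 (peripheral WT), 32 (mesenteric WT), 12 (peripheral Xbp1-KO) and 24 (mesenteric Xbp1-KO) members, and library 2 gave 2, 7, 5 and 37. Summed UMIs per pool ran from 7013 in WT peripheral cells of library 2, where 1 UMI equals 143 CPM (a gene's UMIs scaled to a common total of gene UMIs per pool, the usual CPM unit), to 205697 in Xbp1-KO mesenteric cells of library 2. Values of the 2-cell pool are therefore coarse, and the edgeR fits were also computed without it. Xist, the RNA that silences an X chromosome in female cells, had a UMI in 83.1% and 73.7% of kept cells of the Xbp1-KO pools of library 1 and in 84.7% and 77.0% of the WT pools of library 2. In the other 4 pools it was detected in at most 5.08%. Ddx3y, a Y-linked gene, had a UMI in 22.9 to 31.9% of kept cells of those 4 pools and in 0.462 to 1.19% of the Xist-positive ones. The pools of a group thus differed in these genes, 1 high in Xist and 1 high in Ddx3y, and the spread within a group includes that difference. The sex of the animals is not given in the labels; within each library, genotype and Xist status cannot be told apart.

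The 3 rule genes chose the members, and their levels are given as a description. Vwf (ENSMUSG00000001930; chromosome 6, 125546774 to 125686679, plus strand; GRCm38) stood at 1509 CPM in the pooled members and was detected in 130 of 135 cells. Its pool levels ran from 1073 to 2424 CPM with a median of 1685. Selp (ENSMUSG00000026580; chromosome 1, 164115264 to 164150026, plus strand) was detected in 72 members and stood at 505 CPM. Its level per pool ran from 0 in the 2-cell pool to 742 CPM. Cytl1 (ENSMUSG00000062329; chromosome 5, 37735519 to 37739820, plus strand) was detected in 31 members and stood at 640.0 CPM, from 82.3 to 2281 CPM per pool, and 1 cell held 20.6% of its UMIs. Just 8 cells held both Cytl1 and Selp. The venous sum was 2 in 18 members, 3 in 13, 4 to 9 in 42 and 10 or more in 62. Just outside the rule lay 13 cells with a sum of 1 and no UMI of another panel. A further 152 cells had a venous sum of 2 or more but another panel as high.

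Markers outside the rule were set against the label. Pecam1 and Cdh5, junction genes of all endothelium, stood at 1392 to 2164 and 143 to 1416 CPM over the pools. Of 8 venous markers, 7 were higher in the pooled members than in other blood endothelial cells, and their summed level was 2823 against 975 CPM. The high endothelial cells held more of them, 4570.3 CPM, and more of the venous identity genes outside the rule, 5094 against 4583 CPM in members. In the pools of members the sum of the 8 markers ran from 2045 to 3781 CPM. Aplnr, the apelin receptor, was the exception at 148 against 233 CPM, and Ephb4, an ephrin receptor of veins, differed little at 119 against 102 CPM. Of 8 arterial markers, 1 was higher in members (Bmx, 78.6 against 20.8 CPM), and the sum was 1288 against 3444 CPM. Of 8 capillary markers, 3 were higher, and the sum was 4305 against 6614 CPM. These comparisons carry no test, because the members had been chosen from the same cells. Glycam1, unlike these markers, belongs to the rule and is given as a description. It was at 200.5 CPM in members and 224 CPM in other blood endothelial cells, with a UMI in 43.7% and 42.8% of cells. The high endothelial cells stood at 104344 CPM. A limit on Glycam1 UMIs had separated them from members and other blood endothelial cells, so the selection fixed that contrast.

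Outside the rule, Mgp and Bgn had the highest ratios over other blood endothelial cells. Of 1434 genes at 100 CPM or more in the pooled members, 121 (8.44%) were higher in members than in other blood endothelial cells in 8 of 8 pools. Both cells of the 2-cell pool held Cytl1, and genes with no UMI in those 2 cells could not reach 8 of 8. The count was not repeated without that pool. Ratios are given as log2 of CPM plus 5. The highest was Mgp, the matrix Gla protein that inhibits calcification and BMP signalling, at 1124 CPM in members and 30.5 in the others (log2 ratio 4.99). Mgp ran from 361 to 2344 CPM over the pools of members and from 9.78 to 46.0 CPM over those of other cells. Bgn, the matrix proteoglycan biglycan, followed at 451 against 13.3 CPM, with pools from 246 to 1002 against 0 to 23.0 CPM. Bmp4, a BMP ligand, stood at 151 against 4.44 CPM, and Eln, elastin, at 379 against 47.7 CPM. For Mgp, Bgn and Eln, the single richest member held 15.4%, 12.8% and 10.2% of the UMIs. The basement membrane and matrix list as a whole did not follow them. Of its 24 genes in the files, 10 were higher and 14 lower in members, and it summed to 8974 against 10153 CPM.

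Ackr1, Vcam1, Lrg1, Il6st and Cysltr1 were also among the 25 genes with the highest ratios. Ackr1 (ENSMUSG00000037872; chromosome 1, 173331886 to 173333750, minus strand) stood at 342, 299, 112 and 552 CPM in the peripheral WT, mesenteric WT, peripheral Xbp1-KO and mesenteric Xbp1-KO members of library 1. In library 2 the same pools held 713, 576, 273 and 384 CPM. Every value lay above the 3.91 to 42.5 CPM of other blood endothelial cells, and a UMI was seen in 48.9% of members against 2.50% of the others. With each cell thinned to 1500 UMIs these shares were 30.1% and 1.38%. Vcam1, which binds leukocyte integrins, stood at 241 against 49.6 CPM, and its members' pools ran from 107 to 456 CPM. Lrg1, a secreted glycoprotein of venules, stood at 1253 against 284 CPM, with pools from 570.4 to 2141 CPM. Neither Lrg1 nor Ackr1 was limited to the members. The 218 high endothelial cells with a venous sum of 2 or more held 3875 CPM of Lrg1 and 346 of Ackr1. The 152 cells with such a sum but another panel as high, which count among the other blood endothelial cells, held 1176 and 241 CPM, against 1253 and 385 CPM in members. Il6st, the shared receptor chain of IL-6 family cytokines, stood at 1006 against 246 CPM, and Cysltr1, a receptor for cysteinyl leukotrienes, at 141 against 4.87 CPM.

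Nr2f2, the venous transcription factor, was higher in members in 8 of 8 pools, from 160.4 to 570.4 CPM against 31.3 to 70.1 CPM, although lymphatic cells of the same libraries held more (622 CPM). Ptgs1, Slco2a1 and Procr were also higher in every pool. Ptgs1, which encodes cyclooxygenase-1, stood at 154 against 23.8 CPM, Slco2a1, a prostaglandin transporter, at 523 against 101 CPM, and Procr, the endothelial protein C receptor, at 157 against 34.7 CPM. Of the 27 listed genes of Weibel-Palade bodies and haemostasis outside the rule, 21 were higher in the pooled members and 6 lower, with 8 higher and 3 lower in at least 7 pools, and the list summed to less in members (8142 against 11269.5 CPM). Igfbp7, a secreted binding protein, set that order at 4284 against 8707 CPM, and without it the list summed to 3858 against 2563 CPM. Of the 8114 genes of any kind at 20 CPM or more in members and other blood endothelial cells together, 45.1% were higher in members, against 18 of 22 in this list and 9 of 22 in the basement membrane and matrix list. Fgl2, an immune regulator of the fibrinogen family, stood at 128 against 2.62 CPM. The other genes of the 25 with the highest ratios were Myof, Ctsh, Tmem158, Mras, Chp2, Hs3st1, AU021092, Timp2, Spint2, Cpe and Tspan7, with log2 ratios from 1.69 (Tspan7) to 3.74 (Myof).

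In the other direction, 188 of 1499 genes (12.5%) at 100 CPM or more in other blood endothelial cells were lower in members in 8 of 8 pools. In the 2-cell pool, where 1 UMI is 143 CPM, a gene with no UMI counted as lower. This share and that of the genes higher in 8 of 8 pools are therefore not alike. The 10 with the lowest ratios included genes known from capillaries. Car4, a carbonic anhydrase of capillaries, stood at 14.4 against 148 CPM, Rgcc at 186 against 1152 CPM and Btnl9 at 38.5 against 296 CPM. Ramp3, a co-receptor of the adrenomedullin receptor, stood at 9.62 against 101 CPM and Igfbp3, an IGF-binding protein, at 178 against 931 CPM. Serpine2, Itm2a, Rsad2 and Jup had log2 ratios from -3.12 to -2.34. The lowest ratio was that of Hbb-bs, a globin of red cells, at 1.60 against 171 CPM, which is 1 UMI in all members. The level in other cells came from few pools, with a range of 0.559 to 2164 CPM, a median of 3.43 CPM and the highest value in Xbp1-KO mesenteric cells of library 1.

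**Figure D1:**
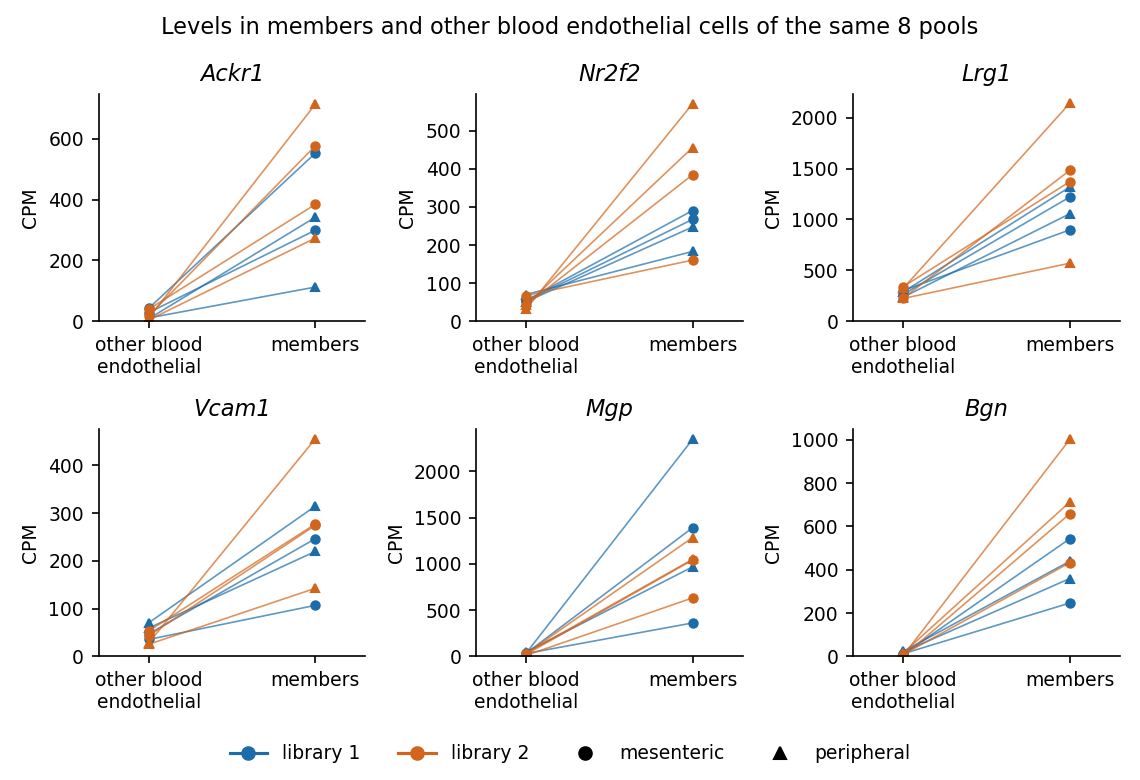
Level (CPM, vertical axis) of Ackr1, Nr2f2, Lrg1, Vcam1, Mgp and Bgn in other blood endothelial cells and in the members of the same pool, joined by a line, with library by colour and tissue by symbol. In each of the 6 panels all 8 lines rise, and Mgp spans 361 to 2344 CPM among the members.

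The members were not uniform. They were divided, after the data had been seen, by the rule gene detected: 31 cells with Cytl1, 64 with Selp and no Cytl1, and 40 with Vwf only. The 3 kinds are described without a test, since the same genes chose the cells. Cells with Cytl1 held the most Mgp, Bgn, Eln and Bmp4. Mgp stood at 4741 CPM in them, 162 in cells with Selp and 268 in cells with Vwf only. It was detected in 28 of 31, 14 of 64 and 6 of 40 cells. Taken by library, the Mgp level of cells with Cytl1 was 5044 CPM in library 1 and 4313 CPM in library 2, against 135 and 195 CPM in cells with Selp. Bgn stood at 1583, 185 and 101 CPM in the order Cytl1, Selp and Vwf only, Eln at 1027, 228 and 174, and Bmp4 at 502, 72.1 and 33.5. Bgn, Eln and Bmp4 were highest in the cells with Cytl1 in both libraries. Markers of other cell types also differed between the kinds. In the same order the 8 fibroblastic reticular markers summed to 517, 14.4 and 6.71 CPM, with Dcn at 384, 8.65 and 6.71. The 8 haematopoietic markers summed to 172, 11.5 and 0 CPM, and the 8 pericyte and smooth muscle markers to 141, 753 and 121. Their part in the matrix levels was not tested. Of the basement membrane collagens, Col15a1 and Col4a2, chosen after their values were seen, were lowest in cells with Cytl1. In the same order Col15a1 stood at 47.0, 568 and 248 CPM and Col4a2 stood at 86.2, 283 and 785 CPM. The basement membrane and matrix list, with Mgp and Bgn in it, summed to 12766, 7144 and 9984 CPM.

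The 8 arterial markers summed to 737 CPM in cells with Cytl1, 773 with Selp, 2957 with Vwf only and 5169 in cells of the arterial panel. The chemokine Cxcl12, 1 of the 8, made 157, 496 and 2253 CPM of the sums of the 3 kinds. Without it cells with Selp, not those with Cytl1, were the lowest. Some single genes known from arteries were high in cells with Cytl1. Edn1, the vasoconstrictor endothelin-1, stood at 1356 CPM in cells with Cytl1 and 841 CPM in cells of the arterial panel, against 268 CPM in cells with Selp. In cells with Cytl1 it stood at 1859.9 CPM in library 1 and 643 CPM in library 2. Bmx, a kinase of large-vessel endothelium, stood at 313 CPM against 128 and 8.65 CPM, and Cldn5, a tight-junction claudin, at 1074 against 852 and 170.2 CPM. In cells with Selp, Cldn5 stood at 296 CPM in library 1 and 13.0 CPM in library 2 (57 and 2 UMIs). Fbln5, an elastic-fibre protein, stood at 721 CPM in cells with Cytl1, 829.6 in library 1 and 567 in library 2. It stood at 720.1 CPM in the arterial panel, which it helps to define. Gja5, a connexin of the arterial panel and so a rule gene, was seen in 7 of 31 cells with Cytl1 (165 CPM). It was seen in 0 of 64 cells with Selp and 4 of 40 with Vwf only (33.5 CPM). Other arterial genes were low in cells with Cytl1 when set against the arterial panel. Gja4, an arterial connexin, stood at 31.3 CPM against 462 CPM, and Hey1, a Notch target, had no UMI in cells with Cytl1 against 194 CPM. Their Nr2f2 level of 360.5 CPM and Ackr1 level of 337 CPM were those of venous cells, against 46.6 and 1.24 CPM in the arterial panel.

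Adhesion genes were divided between the kinds. Vcam1 was highest in cells with Cytl1, at 431 CPM against 234 in cells with Selp and 93.9 in cells with Vwf only, and in that order in both libraries. The adhesion and transmigration list summed to 8072, 7312 and 6551 CPM in the same order. Other genes were highest with Selp. Lrg1 was detected in 62 of 64 of them, at 1621 CPM against 987 CPM in cells with Cytl1 and 624 in cells with Vwf only. Ackr1 stood at 485 CPM, Icam1, a ligand of leukocyte integrins, at 490.3 CPM, and Sele, the inducible E-selectin, at 121 CPM. Sele had no UMI in the cells of the other kinds, and 1 cell held 40.5% of all its UMIs. Madcam1, the mucosal addressin of high endothelium, stood at 464 CPM in cells with Selp against 2692 CPM in the high endothelial cells. Ccl21a, a homing chemokine, stood at 1459 CPM in them against 15.7 CPM in cells with Cytl1, but only 19 of 64 cells held a UMI of it. By library the cells with Selp stood at 763 and 2331 CPM, and 449 of their 506 UMIs lay in the 33 Xbp1-KO mesenteric cells (2411 CPM, against 139 CPM in WT mesenteric ones). High endothelial cells stood at 18491 CPM. Col15a1, a basement membrane collagen, was detected in 54 of 64 cells with Selp and 5 of 31 with Cytl1.

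The 40 cells with Vwf only held capillary and arterial genes at levels nearer to other blood endothelial cells, which goes partly against the venous label. Cxcl12, a chemokine of arterial and capillary endothelium, stood at 2253 CPM in them, against 157 and 496 CPM in cells with Cytl1 and with Selp and 2451 CPM in other blood endothelial cells. Gpihbp1, which anchors lipoprotein lipase on capillaries, stood at 972 CPM against 1079 CPM in other blood endothelial cells. Rgcc stood at 449 CPM, below the 1152 CPM of other blood endothelial cells. Ackr1 and Nr2f2 were lower than in the other kinds, at 194 and 134 CPM, and still above the 19.5 and 55.4 CPM of other blood endothelial cells. By library, Ackr1 in these cells was 283 CPM in library 1 and 77.9 CPM in library 2, and Nr2f2 was 177 and 77.9 CPM. The library 2 values are 5 UMIs each. The cells with Vwf only also had the lowest median depth, 3437 UMIs against 4205 with Cytl1 and 5484 with Selp, and its part in the division was not tested.

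**Figure D2:**
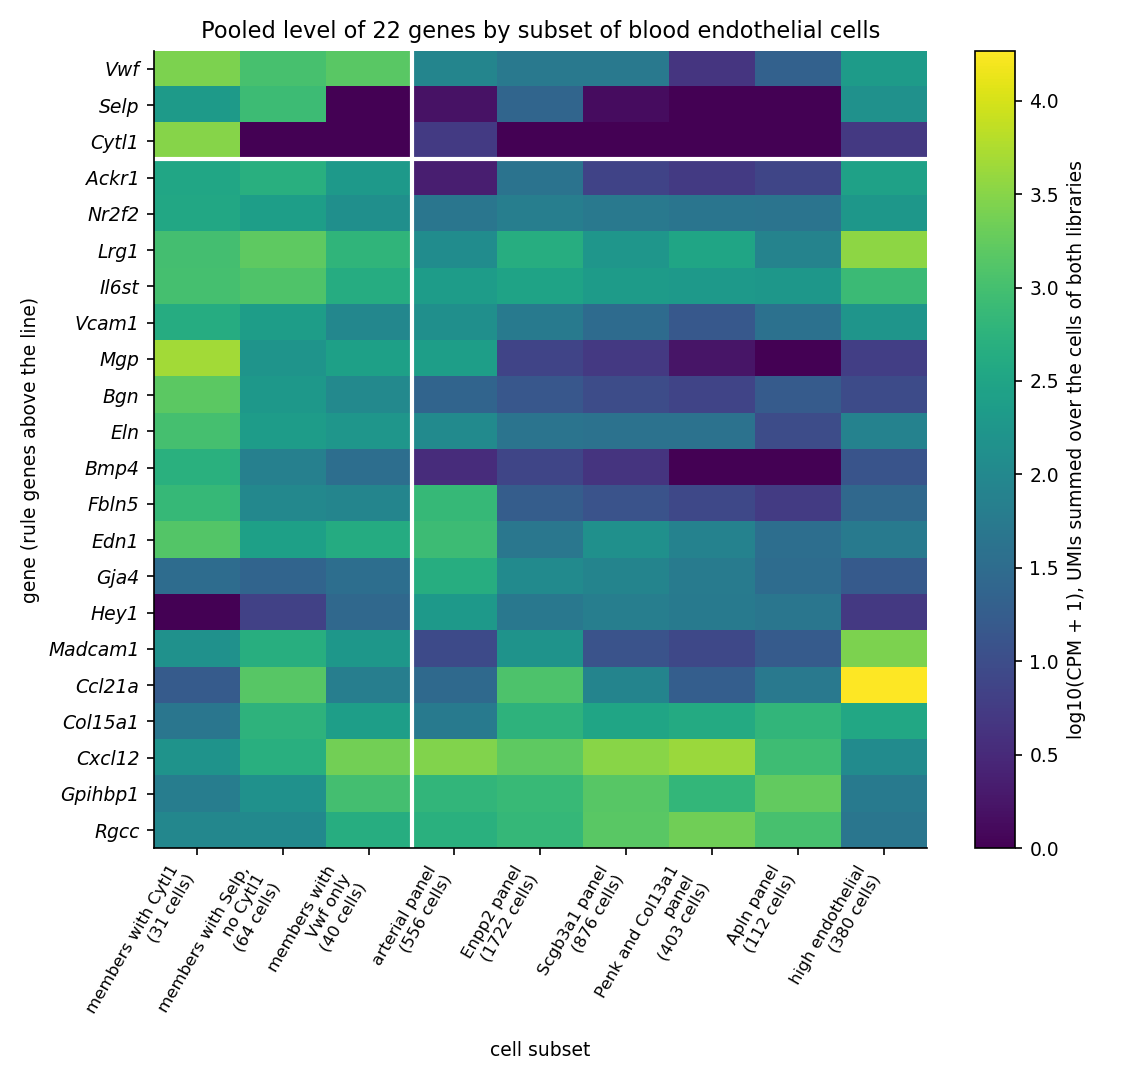
Pooled level, as log10 of CPM plus 1 (colour), of the rule genes above the line and of other genes below it, in the 3 kinds of member at left and in the other blood endothelial subsets at right. Mgp, Bgn, Eln and Bmp4 peak in the 31 members with Cytl1, Lrg1 and Ccl21a peak among members in the 64 with Selp, and the 40 with Vwf only hold Cxcl12 and Gpihbp1 near the capillary panels.

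Markers of other cell types differed between pools of members. The 8 haematopoietic markers summed to 41.7 CPM in members and to 1.96 to 154 CPM over the pools of other blood endothelial cells, with Cd3e, Lyz2 and Tyrobp at 0. Members of the 2-cell pool stood at 2424 CPM and Xbp1-KO peripheral members of library 2 at 182 CPM, both above that range, and the other 6 pools at 36.6 CPM or less. Of 8 platelet markers, Ppbp, Gp9, Gp1bb and Tubb1 were at 0 and the sum was 27.3 against 21.6 CPM, with 1 UMI (143 CPM) in the 2-cell pool. Platelets hold Vwf and Selp, and their part in those levels was not tested. The 8 fibroblastic reticular markers summed to 115 against 105 CPM, with Col1a2, Ccl19 and Cxcl13 at 0. WT mesenteric members of library 1 (493 CPM) and the 2-cell pool (713 CPM) lay above the highest pool of other cells (349 CPM). The 8 pericyte and smooth muscle markers summed to 476 against 102 CPM, of which Tagln alone made 459 CPM, with Cspg4 and Notch3 at 0. Their sum was 994, 427, 312 and 603 CPM in 4 pools of members, against at most 202 CPM in a pool of other cells. The 8 high endothelial markers summed to 1431 against 768 CPM, and from 89.9 to 2285 CPM over the pools. The 8 lymphatic markers summed to 978 against 666 CPM, of which Ccl21a, which both lists hold, made 831 CPM. Cells with a UMI of Ptprc, Cd3e, Cd79a, Pdgfrb, Pdgfra, Prox1, Mmrn1 or Lyve1 are called mixed-type here. They made up 19 of the members (14.1%) and 9.37% of the others, whose median depth was lower (2732 against 4432 UMIs). The doublet caller Scrublet marked 1 member. It marked 240 barcodes in library 1 but only 10 (0.344%) in library 2.

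Members made up a larger share of mesenteric than of peripheral blood endothelial cells outside high endothelium. In library 1 the share was 1.44% in WT peripheral (exact 95% interval 0.824 to 2.32%), 1.33% in Xbp1-KO peripheral (0.688 to 2.31%), 2.78% in WT mesenteric (1.91 to 3.91%) and 5.52% in Xbp1-KO mesenteric nodes (3.57 to 8.10%). In library 2 the shares were 0.760% (0.0922 to 2.72%), 1.02% (0.331 to 2.36%), 2.39% (0.966 to 4.86%) and 6.07% (4.31 to 8.26%) in the same order. The 4 mesenteric pools lay above the 4 peripheral pools, and both Xbp1-KO mesenteric pools lay above both WT mesenteric pools. These shares carry no test, because the level of the rule genes decides them, and the intervals cover counting error only. With each cell thinned to 1500 UMIs the shares were 0.743%, 0.522%, 2.41% and 2.79% in library 1 and 0.418%, 0.229%, 0.375% and 4.81% in library 2, where WT mesenteric then lay below WT peripheral, with 1 thinned member each. The make-up of the members differed as well: 13 of 35 peripheral members held Cytl1 against 18 of 100 mesenteric ones.

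**Figure D3:**
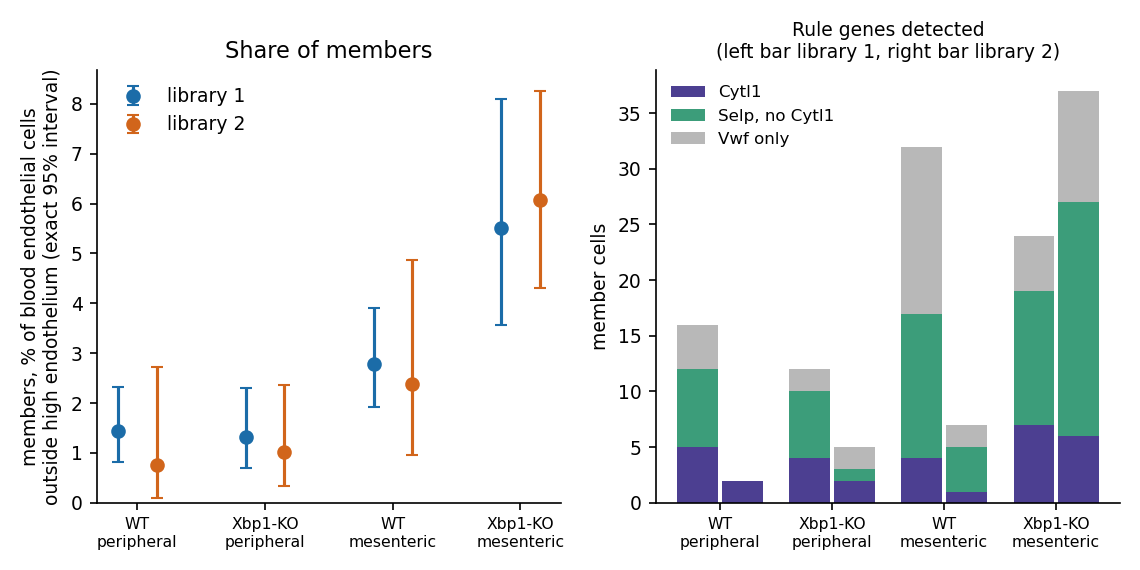
Left, members as a percentage of blood endothelial cells outside high endothelium in each pool, with exact 95% intervals and library by colour; right, the number of member cells per pool by rule gene detected. The Xbp1-KO mesenteric pools reach 5.52% and 6.07%, and the peripheral pools stay between 0.760% and 1.44%.

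Xbp1, the targeted gene, was examined first in the comparison of genotypes. XBP1 acts in the unfolded protein response as a transcription factor, and in secretory cells it raises the genes of protein folding and export. Xbp1 (ENSMUSG00000020484; chromosome 11, 5520659 to 5525893, plus strand) gave 20, 23, 4 and 14 UMIs in the peripheral WT, mesenteric WT, peripheral Xbp1-KO and mesenteric Xbp1-KO members of library 1, and 1, 11, 1 and 35 in library 2. Peripheral members averaged 193 ± 71.8 CPM with WT and 67.7 ± 31.4 CPM with Xbp1-KO labels (mean ± SD, n = 2 each), and mesenteric members 252 ± 70.4 and 147 ± 32.1 CPM. Within each library and tissue the Xbp1-KO value was the lower one (4 of 4 pairs), but the mean log2 fold change of -1.13 ± 0.43 (SE) did not pass (edgeR, adjusted p 0.998). Without the WT peripheral pool of library 1 it was -0.59, and the value within peripheral nodes went from -1.61 to -0.48. The effect in members differed from that in other blood endothelial cells by -0.09 ± 0.46 (edgeR, adjusted p 1.0). A UMI of Xbp1 was seen in each Xbp1-KO pool. The pools of a library were captured together, and the share of these UMIs that came from free RNA of other cells was not estimated. Counts at the 3′ end would also include transcripts that lack a deleted exon. In summed pools, fewer Xbp1-positive cells and less Xbp1 RNA per cell cannot be told apart.

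No gene passed the comparison of Xbp1-KO with WT members. Of 1236 genes tested outside the rule, 0 (0%) had an edgeR adjusted p under 0.05 in the mean over both tissues, 39 (3.16%) had an unadjusted p under 0.05, and DESeq2 called 0. The counts were also 0 within peripheral nodes (54 unadjusted, 4.37%, DESeq2 0) and within mesenteric nodes (21 unadjusted, 1.7%, DESeq2 0). In simulations of the mean over both tissues the same test recovered 35.6% of genes changed 2-fold and 93.2% of those changed 4-fold, so changes under 4-fold could be missed. The tests within 1 tissue were not simulated. Leaving out 1 pool at a time gave 0 to 3 calls in the mean over tissues. The highest count, 13, came from a fit with library and Xist status as terms.

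The gene lists are therefore given as counts and medians. Of 36 endoplasmic reticulum genes under XBP1 control, 13 had enough counts to be tested. None passed, 7 lay above 0 and 6 below, and the median log2 fold change was 0.01 against 0.05 over all genes tested. The largest value in this list was that of Hspa5, the chaperone BiP, at 0.91 ± 0.36 (edgeR, adjusted p 0.998), with the Xbp1-KO value above the WT value in 4 of 4 pairs. Of 18 tested immediate-early genes, which respond within minutes to stress and to tissue dissociation, 17 lay above 0, where 55.6% of all genes did. Their median was 0.51, and 0 passed the adjusted test. Nr4a1, an orphan nuclear receptor, stood at 1.09 ± 0.38, Atf3, a stress transcription factor, at 0.80 ± 0.35 and Fosb, an AP-1 subunit, at 0.70 ± 0.33 (edgeR, adjusted p 0.998 for each). Taken by library, Nr4a1 was 0.70 in library 1 and 1.15 in library 2, Atf3 0.01 and 2.45, and Fosb 0.11 and 1.33. The high values of Atf3 and Fosb thus came from library 2. Its WT peripheral pool is the 2-cell pool, with 1 UMI of Atf3 and 4 of Fosb. Vim, an intermediate filament, stood at 0.77 ± 0.23 (edgeR, adjusted p 0.998), with 0.53 in library 1 and 1.18 in library 2. Madcam1 stood at -2.08 ± 0.88, which turned to 1.70 without the WT peripheral pool of library 1. In the fit with library and Xist status as terms both passed, Vim at 0.79 (edgeR, adjusted p 0.0265) and Madcam1 at -2.54 (edgeR, adjusted p 0.00439). Without that fit's added terms, Madcam1 was -0.72 in library 1 and -0.97 in library 2, and -0.36 without the 1 member that Scrublet marked as a doublet, a WT peripheral cell of library 1. In that pool 1 cell held 28 of 30 Madcam1 UMIs. Among venous identity genes outside the rule, 7 of 12 lay above 0 with a median of 0.23, and 0 passed.

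Fabp4, a fatty acid carrier of capillary and venous endothelium, passed in some fits and not in others. Fabp4 (ENSMUSG00000062515; chromosome 3, 10204088 to 10208576, minus strand) stood at 7983 and 5846 CPM in WT peripheral members of libraries 1 and 2 and at 18787 and 17447 CPM in Xbp1-KO peripheral members, with no overlap. In mesenteric members it stood at 13163 and 7465 CPM in WT and 9405 and 6437 CPM in Xbp1-KO, which overlapped. The peripheral log2 fold change was 1.39 ± 0.26 with an adjusted p of 0.0647 in edgeR, and with the library as a block it was 1.45 ± 0.17 with an adjusted p of 0.000243, 1 gene of 1236 (0.0809%). The mesenteric value was -0.41 ± 0.25 (adjusted p 1.0). The difference between tissues was 1.79 ± 0.36 (edgeR, adjusted p 0.0647), or 1.83 ± 0.23 with an adjusted p of 0.000629 with the block. The peripheral value passed in 8 of 19 alternatives and the difference in 6 of 19, some of them without a library term. A single cell held 361 of 836 Fabp4 UMIs in the Xbp1-KO peripheral pool of library 1 and 224 of 383 in that of library 2. By kind, peripheral Fabp4 was 6441 CPM in WT and 13783 in Xbp1-KO cells with Cytl1, 4798 and 20499.5 in cells with Selp, and 17630 and 19215 in cells with Vwf only. Other blood endothelial cells of peripheral nodes held 3415 and 4870.0 CPM in WT and 6797 and 4834 CPM in Xbp1-KO.

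Between tissues, 3 of 1236 genes (0.243%) passed in the mean over both genotypes, and 2 of the 3 were heat shock genes that were lower in peripheral members. An unadjusted p under 0.05 was reached by 54 (4.37%). Heat shock proteins are chaperones that refold damaged proteins, and their genes are switched on by HSF1 under heat, handling or other stress. Hspa1a (ENSMUSG00000091971; chromosome 17, 34969190 to 34972156, minus strand), which encodes an inducible HSP70, stood at 513 and 382 CPM in the WT and Xbp1-KO peripheral members of library 1 and at 1082 and 1710.0 CPM in the mesenteric ones. In library 2 it stood at 1283 and 228 CPM against 2497 and 2727 CPM. The mesenteric value was the higher in 4 of 4 pairs, although the 2-cell pool overlapped the mesenteric range. The log2 fold change, peripheral minus mesenteric, was -2.09 ± 0.36 (edgeR, adjusted p 0.0181), and DESeq2 called Hspa1a alone. Hspb1 (ENSMUSG00000004951; chromosome 5, 135887919 to 135889563, plus strand), the small chaperone HSP27, stood at 3516, 2607, 1426 and 2688 CPM in the peripheral pools and at 6802, 4560.1, 5983 and 5761 CPM in the mesenteric ones, with no overlap. Its log2 fold change was -1.10 ± 0.22 (edgeR, adjusted p 0.0318). Over the alternatives, Hspa1a passed in 17 of 19, with adjusted p from 1.69e-11 to 0.184, and Hspb1 in 7 of 19, with adjusted p up to 0.492. Hspb1 no longer passed without either Xbp1-KO peripheral pool (-1.35 for library 1 and -1.23 for library 2) or without either library 2 mesenteric pool (-1.33 for WT and -1.05 for Xbp1-KO).

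All 9 heat shock genes with enough counts, of 14 listed, lay below 0, where 56.3% of all genes tested did. Their median was -0.95 against -0.05 over all genes, and they ran from -2.09 to -0.01. The immediate-early and dissociation genes lay the same way in 15 of 18 cases, with a median of -0.33 and no gene past the adjusted test, and their part in the heat shock result was not tested. Hspa1b, the twin of Hspa1a, stood at -1.65 ± 0.44 (adjusted p 0.283) and, with the library as a block, at -1.48 ± 0.29 with an adjusted p of 0.0259. Dnajb1, an HSP70 co-chaperone, stood at -1.58 ± 0.46 (edgeR, adjusted p 0.489), with -2.09 in library 1 alone and -0.53 in library 2 alone. Hspa1a and Hspa1b are near-identical, and how the authors' counting divided reads between them is not given in the sources used here. The tissue difference was also seen outside the members. Other blood endothelial cells held 756, 948, 1379.9 and 2126 CPM of Hspa1a in peripheral pools and 1588, 2905, 3994 and 7365 CPM in mesenteric ones. The tissue effect in members minus that in other cells was -0.70 ± 0.42 for Hspa1a and -0.61 ± 0.38 for Hspb1 (edgeR, adjusted p 0.902 and 0.909). Within each kind of member Hspa1a was lower in peripheral cells, at 764 against 1948 CPM with Cytl1, 148 against 1744 with Selp and 898 against 2884 with Vwf only. The protocols describe the digestion of peripheral nodes only, so handling and tissue cannot be told apart.

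The 250 bases upstream of the start of Hspa1a and Hspb1, which passed, of Hspa1b, the near-identical copy of Hspa1a, and of Nudt4, which passed in the other direction, are shown because HSF1 binds repeats of a short inverted element. They come from RefSeq on GRCm38.p6, read 5′ to 3′ on the gene's strand, and all 4 genes were matched by symbol. Capitals mark GAANNTTC or TTCNNGAA, both of which read the same on either strand and can overlap by their shared triplets.
Hspa1a: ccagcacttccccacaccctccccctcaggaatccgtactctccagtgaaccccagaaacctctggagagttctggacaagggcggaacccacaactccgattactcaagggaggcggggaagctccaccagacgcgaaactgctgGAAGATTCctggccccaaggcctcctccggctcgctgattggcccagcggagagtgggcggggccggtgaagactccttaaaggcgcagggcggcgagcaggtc
Hspa1b: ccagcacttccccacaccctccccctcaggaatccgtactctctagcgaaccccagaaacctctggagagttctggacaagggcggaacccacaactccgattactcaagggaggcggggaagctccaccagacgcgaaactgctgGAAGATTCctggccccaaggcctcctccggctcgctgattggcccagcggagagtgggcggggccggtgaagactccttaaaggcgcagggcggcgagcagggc
Hspb1: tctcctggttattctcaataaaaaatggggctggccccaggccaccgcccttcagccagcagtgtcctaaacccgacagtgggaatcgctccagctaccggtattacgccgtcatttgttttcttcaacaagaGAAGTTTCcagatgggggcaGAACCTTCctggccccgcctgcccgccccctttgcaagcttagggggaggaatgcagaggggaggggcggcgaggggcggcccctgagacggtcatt
Nudt4: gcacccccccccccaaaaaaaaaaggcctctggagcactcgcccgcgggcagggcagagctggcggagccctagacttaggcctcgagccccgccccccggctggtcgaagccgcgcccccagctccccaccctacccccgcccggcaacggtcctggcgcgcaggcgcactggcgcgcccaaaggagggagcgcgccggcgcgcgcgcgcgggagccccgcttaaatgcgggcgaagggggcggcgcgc
These windows lie at chr17:34972157-34972406, minus strand (Hspa1a), chr17:34959239-34959488, minus strand (Hspa1b), chr5:135887669-135887918, plus strand (Hspb1) and chr10:95564147-95564396, minus strand (Nudt4). The Hspa1a and Hspa1b windows agreed at 247 of 250 bases and each held 1 match to GAANNTTC. The Hspb1 window held 2 and the Nudt4 window none. Of 32536 distinct upstream windows of that length, 6.72% held GAANNTTC, 12.9% held either form and 1.46% held 2 or more matches. Of the 14 listed heat shock genes, 11 had at least 1 window, and 8 of these held a match in any of their windows. That count is per gene, whereas the shares above are per window. A match describes the letters and is no evidence of binding in these cells.

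Nudt4 (ENSMUSG00000020029; chromosome 10, 95547007 to 95564146, minus strand), which encodes a hydrolase of inositol pyrophosphates, rose in peripheral members. It stood at 317, 562, 143 and 319 CPM in the WT and Xbp1-KO peripheral pools of libraries 1 and 2, and at 88.0, 44.5, 54.9 and 112 CPM in the mesenteric ones, without overlap. The log2 fold change was 2.15 ± 0.41 (edgeR, adjusted p 0.0318). The counts were small, 26, 25, 1 and 7 UMIs in the peripheral pools, and 1 cell held 16 of 26 in the WT and 15 of 25 in the Xbp1-KO pool of library 1. In other blood endothelial cells Nudt4 ran from 164 to 282 CPM, and the difference of tissue effects was 1.87 ± 0.47 (edgeR, adjusted p 0.13). Nudt4 was higher in peripheral cells within each kind of member, at 239 against 117 CPM with Cytl1, 332 against 67.8 with Selp and 681 against 103 with Vwf only. Both genotypes were summed there, and WT cells with Cytl1 held 42.9 CPM in peripheral and 88.4 CPM in mesenteric nodes, which are 1 and 2 UMIs. A model that added the library passed 5 genes (0.405%), the 3 above with Hspa1b and Mt1, a metallothionein of which 1 cell held 48 of 49 UMIs of the Xbp1-KO peripheral pool of library 1. Nudt4 passed in 9 of 18 alternatives. It no longer passed without the library 1 pools of WT peripheral (1.39), Xbp1-KO peripheral (1.66) or Xbp1-KO mesenteric members (1.89), and it fell to 1.20 without members that held UMIs of other cell types. Within WT alone 0 genes passed in edgeR, 46 (3.72%) had an unadjusted p under 0.05, and DESeq2 called 0.

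No gene of the venous lists passed between tissues. Over all genes tested 56.3% lay below 0 and the median was -0.05. Of the 12 tested venous identity genes outside the rule, 8 lay above 0 and 4 below, with a median of 0.09. Of 15 adhesion and transmigration genes, 11 lay below 0, that is lower in peripheral members, with a median of -0.31. The lowest was Madcam1 at -2.68 ± 0.84 (edgeR, adjusted p 0.542), with 30, 1, 0 and 0 UMIs in the peripheral pools, 28 of the 30 in 1 cell. Of 10 genes of Weibel-Palade bodies and haemostasis, 7 lay below 0 with a median of -0.27. Of 12 basement membrane and matrix genes, 8 lay below 0, and the highest was Mgp at 0.89 ± 0.29 (edgeR, adjusted p 0.542). Without the WT peripheral pool of library 1 it fell to 0.33. No member of these 4 lists passed in either direction, but in a fit with library and Xist status as terms Mgp passed at 0.92 (edgeR, adjusted p 0.0323) and Madcam1 at -2.45 (edgeR, adjusted p 0.00721). The larger share of cells with Cytl1 among peripheral members stands beside the Mgp value, and its part was not tested.

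**Figure D4:**
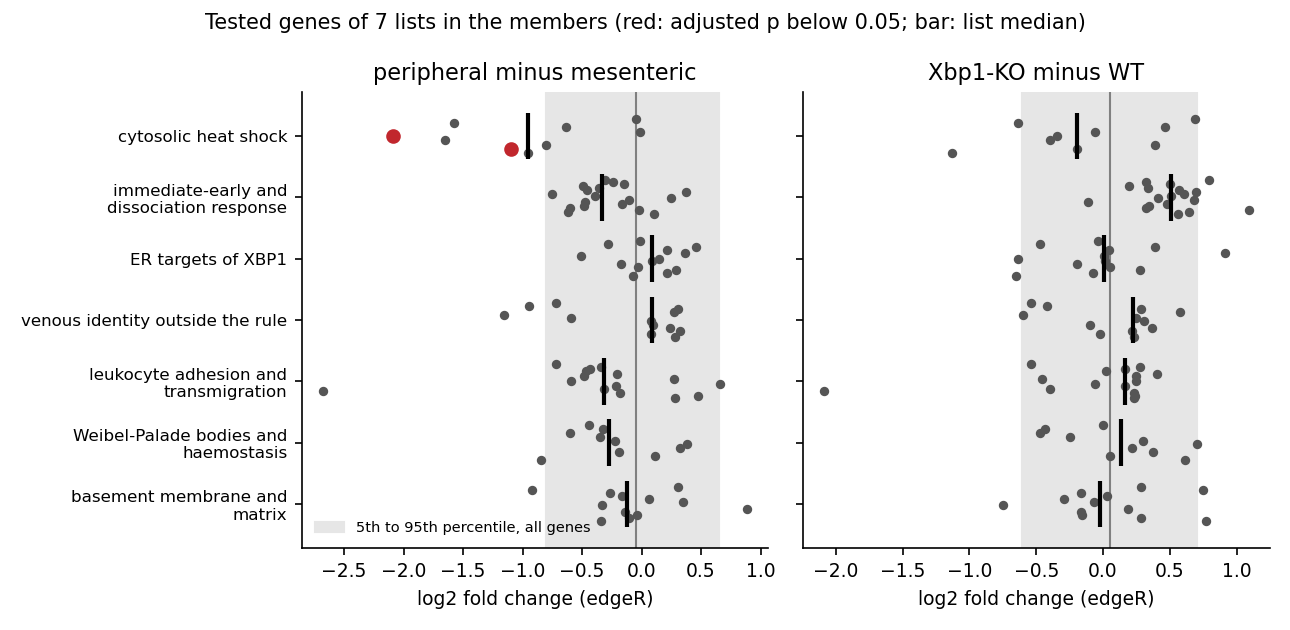
Fitted log2 fold change in members (horizontal axis) of each tested gene of 7 lists, peripheral minus mesenteric at left and Xbp1-KO minus WT at right; points are genes, bars are list medians, red points passed, and grey marks the 5th to 95th percentile of all genes. The 9 heat shock genes lie below 0 at left, with Hspa1a and Hspb1 in red, and 17 of 18 immediate-early genes lie above 0 at right without passing.

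A gene whose genotype effect differed between the tissues was Ccl21a (ENSMUSG00000094686; chromosome 4, 42772860 to 42773993, minus strand), 1 of 1236 (0.0809%), and 40 (3.24%) reached an unadjusted p under 0.05. A model with library as a term passed 2 (0.162%), Ccl21a and Fabp4. Ccl21a gave 47 and 0 UMIs in WT peripheral members of libraries 1 and 2, 0 and 2 in Xbp1-KO peripheral, 6 and 9 in WT mesenteric and 105 and 349 in Xbp1-KO mesenteric members. Mesenteric levels were 52.8 and 247 CPM in WT and 935 and 1697 CPM in Xbp1-KO, without overlap, and the ratio of summed counts was 14.3 (exact 95% counting interval 8.57 to 25.7). The peripheral ratio was 0.0570 (0.00670 to 0.217), from 2 UMIs against 47. The edgeR difference had an adjusted p of 0.037, and its fitted size depends on pools at 0. A single WT peripheral cell held 43 of 47 UMIs of that pool, and without that pool the fitted value turned from -7.28 to 0.81. Ccl21a also no longer passed without the member that Scrublet marked (edgeR, adjusted p 0.0586), without mixed-type cells (0.386), with Glycam1 under 5 UMIs or in the DESeq2 test (1.0 in both). By library its difference was -10.88 and 1.51. One mesenteric Xbp1-KO cell held 63 of 105 in library 1 and another 160 of 349 in library 2. Other blood endothelial cells of mesenteric nodes held 558 and 700.3 CPM in WT and 1031 and 1276 CPM in Xbp1-KO. Ccl21a belongs to a family of near-identical copies, so its count is uncertain. The summed high endothelial markers, which include Ccl21a, stood at 299 and 1592 CPM in WT mesenteric and 1942 and 2285 CPM in Xbp1-KO mesenteric members, and their part was not tested.

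**Figure D5:**
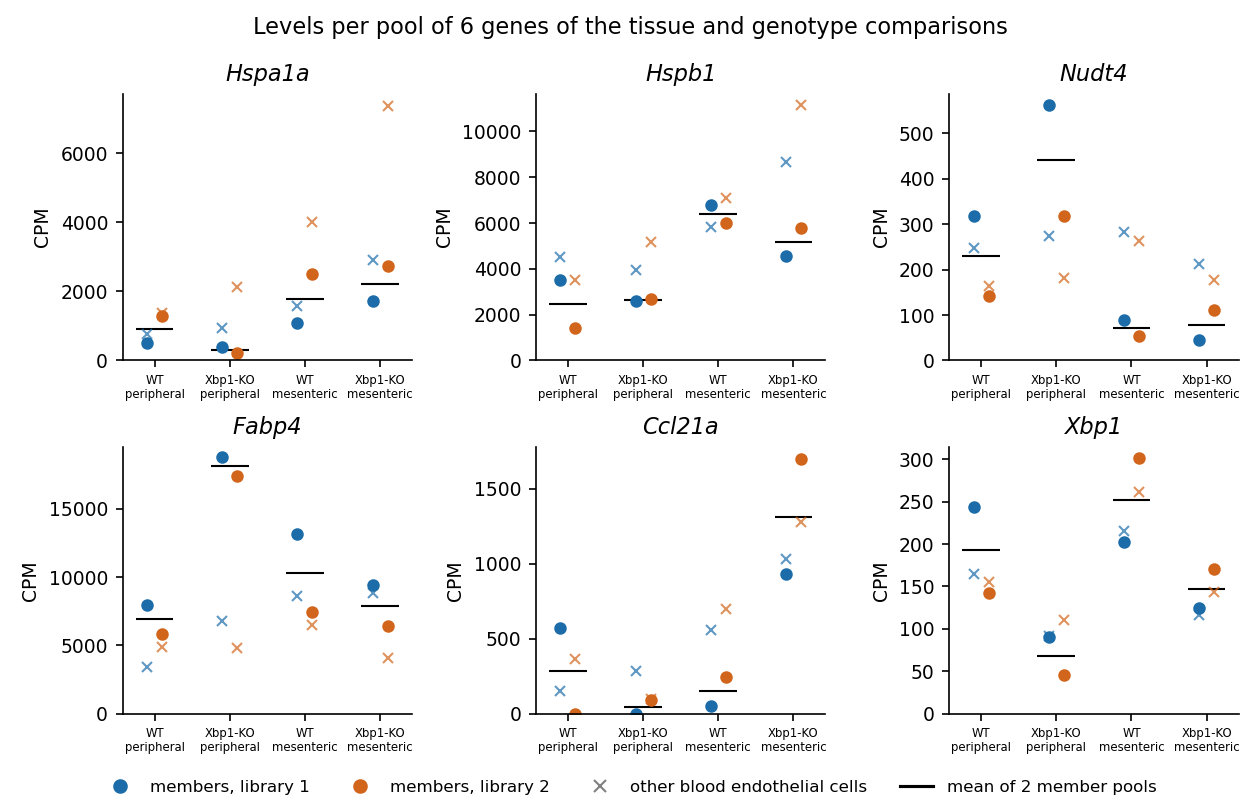
Level (CPM) per pool of Hspa1a, Hspb1, Nudt4, Fabp4, Ccl21a and Xbp1 in the 4 groups of members (dots, library by colour; line, mean of 2 pools) and in other blood endothelial cells of the same pools (crosses). Hspb1 and Nudt4 separate the tissues without overlap, Fabp4 reaches 18787 and 17447 CPM in Xbp1-KO peripheral members, and Xbp1 is lower in Xbp1-KO in each pair.

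Effects in members were set against those in other blood endothelial cells of the same pools, over 8779 genes. An unadjusted p under 0.05 was reached by 276 (3.14%) for genotype and 467 (5.32%) for tissue. The tissue values were shifted as a whole, with a median of -0.32 and 65.9% below 0. That shift depended on how the sums were scaled. With DESeq2 size factors in place of TMM the median was -0.07 and 46.5% lay above 0. With TMM the immediate-early and dissociation genes lay below 0 in 20 of 20 cases, with a median of -0.76. Of these, 11 had an unadjusted p under 0.05 and 0 passed the adjusted test (edgeR). The list was not counted again with DESeq2 size factors. In the genotype effect 1 gene (0.0114%) differed, Tagln, an actin-binding protein of smooth muscle, at -2.34 ± 0.48 (edgeR, adjusted p 0.0112). Tagln (ENSMUSG00000032085; chromosome 9, 45929619 to 45936058, minus strand) stood at 36.6, 977, 337 and 312 CPM in the peripheral WT, mesenteric WT, peripheral Xbp1-KO and mesenteric Xbp1-KO members of library 1 and at 0, 27.4, 0 and 588 CPM in library 2, with no common order. One cell held 29 of 111 UMIs in the WT mesenteric pool of library 1, and another 73 of 121 in the Xbp1-KO mesenteric pool of library 2. Without the WT mesenteric pool of library 1, which held 111 UMIs, the value turned to 0.88. In the tissue effect 1 gene (0.0114%) differed, Rnd1, at -2.47 ± 0.57 (edgeR, adjusted p 0.0369). Rnd1 (ENSMUSG00000054855; chromosome 15, 98663421 to 98677461, minus strand) stood at 97.7, 22.5, 0 and 45.6 CPM (8, 1, 0 and 1 UMIs) in the peripheral pools and 88.0, 151, 274 and 408 CPM in the mesenteric pools of WT and Xbp1-KO members of libraries 1 and 2. The mesenteric value was the higher in 3 of 4 pairs, the WT pair of library 1 went the other way, and the tissues overlapped. Other blood endothelial cells ran from 54.8 to 140.0 CPM. Rnd1 passed in 7 of 14 alternatives and lost the call without either Xbp1-KO mesenteric pool, either Xbp1-KO peripheral pool or the WT mesenteric pool of library 2, with values from -2.55 to -2.15. Tagln passed in 8 of 14. Of the members, those with Selp held most Rnd1 (311 against 54.9 CPM with Cytl1), and Selp cells made up 50 of 100 mesenteric against 14 of 35 peripheral members. Cells with Selp held 73.9 CPM in peripheral and 384 CPM in mesenteric nodes. Cells with Vwf only did not show that order, at 124 and 103 CPM. In 1 simulation of the genotype comparison the fit recovered 28% of genes changed 4-fold and 62% of those changed 8-fold. The difference of tissue effects was not simulated.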

How the data were processed

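The authors deposited whole-number UMI counts per gene and cell for 2 libraries. Per the file headers these came from Cell Ranger 6.0.1, whereas the submitters' processing notes give 6.1, and build mm10. The labels' protocols name kit v2, the series' design text 3′ v3. Intron counting is not given in the sources used here.

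Cells with at least 500 genes, at most 10% mitochondrial UMIs and a top hashtag of at least 10 UMIs and 3 times the next were kept. Members' counts were summed per pool (8 sums) and fitted with edgeR 4.0.16 (quasi-likelihood, TMM, filterByExpr, Benjamini-Hochberg, R 4.3.3), and 1259 genes were tested, of which 1236 outside the rule, the sex-linked and the mitochondrial genes are counted. Effects in members and others were compared in a model of 16 sums with pool as a block. Levels are CPM of gene UMIs. Alternatives included DESeq2 1.42.0, other filters and thresholds, a library block, a sex term and each pool left out. Deviations of pools of 1 library correlated from -0.05 to 0.17, and pools of a library shared 1 capture per the labels, so blocked values stand beside results they change. The fit was tested on simulated data.

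The members and gene lists were chosen with earlier results of these data known. Named genes are those that passed in the same direction in both libraries (up to 12 each way), up to 3 tested genes of each list with the largest change, Xbp1, the 25 highest and 10 lowest ratios against other cells, and the rule genes. Ccl21a (difference) and Tagln passed with opposite directions in the libraries, fall outside the first part of that rule and were named after their values were seen. The division by rule gene detected was added after seeing the data. Intervals are exact (95%) and cover counting error only. Coordinates are GRCm38 (GENCODE M21, 32235 of 32285 identifiers matched). Python 3.11.15, scanpy 1.11.5 and scipy 1.17.1 were used.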

Additional observations from a re-analysis of the deposited data

Results flagged for a closer look

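A genotype effect that differed between tissues within the members was found for Ccl21a, with a fitted log2 difference of -7.28 ± 1.32 (edgeR, adjusted p 0.037; peripheral minus mesenteric). In mesenteric nodes there were 15 UMIs in WT and 454 in Xbp1-KO members, with no overlap of the pools. The peripheral contrast rested on 1 cell with 43 of 47 UMIs, and the sign turned without that pool.

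Fabp4 met the same condition with the library as a block. Its log2 difference was 1.79 ± 0.36 (edgeR, adjusted p 0.0647) and 1.83 ± 0.23 with an adjusted p of 0.000629 with the block. It was higher in Xbp1-KO in 2 of 2 peripheral pairs and lower in 2 of 2 mesenteric pairs.

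For Tagln the genotype effect in members differed from that in other blood endothelial cells by -2.34 ± 0.48 (edgeR, adjusted p 0.0112), and the sign turned without the WT mesenteric pool of library 1. For Rnd1 the tissue effect in members differed from that in other blood endothelial cells by -2.47 ± 0.57 (edgeR, adjusted p 0.0369), with 10 UMIs in all peripheral members.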

How the results depend on the processing

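Depth limits the values: the members include 35 peripheral cells, and 1 UMI is 143 CPM in the smallest pool. Counts of passing genes, from 0, 0 and 0 (genotype: mean, peripheral, mesenteric), 1 (difference of genotype effects), 3 and 0 (tissue: mean, WT), and 1 and 1 (members against others: genotype, tissue), moved by over 1.5 times as follows; smaller moves are not listed. Library as a replicate block: 1 peripheral genotype, 2 difference, 5 tissue. Block plus Xist status: 13, 10, 5, 12, 11 and 7. No filter: 2 peripheral, 3 mesenteric, 2 difference, 6 tissue, 6 WT. DESeq2 test: 0 difference, 1 tissue. Glycam1 under 5 UMIs, or sums thinned to the smallest pool (134 genes left to test): 0 difference, 0 tissue. Venous sum of at least 3: 1 peripheral, 2 difference, 1 tissue, 4 and 2 against others. Tag ratio of at least 5: 2 peripheral, 0 and 3 against others. Without mixed-type cells: 1 mesenteric, 0 difference, 0 and 2 against others. Without Scrublet doublets: 0 difference, 1 tissue. DESeq2 size factors: 2 and 6 against others; no pool block: 0 and 0. Leaving out each pool gave 0 to 3, 2 to 8, 1 to 8, 2 to 9, 2 to 13, 3 to 14, 0 to 4 and 0 to 10. With 1 pool missing, the lone pool of its group is taken to vary like the others.

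Signs turned for Madcam1 (genotype mean, -3.73 to 1.70 over left-out pools) and Ccl21a (-11.65 to 0.81), at the upper ends without WT peripheral replicate 1, and for Fabp4 (mesenteric, -0.76 to 0.094) and Tagln (-3.48 to 0.88), at the upper ends without WT mesenteric replicate 1. In library 2 alone Ccl21a was 1.51 and Tagln 1.57. The members-minus-others genotype effect of Xbp1 turned to 0.32 without WT peripheral replicate 1, 0.09 without KO peripheral replicate 2 and 0.16 without mixed-type cells, and was -0.52 in library 2 alone. That of Fabp4 was -0.14 in library 1 alone and 1.02 in library 2 alone. The causes were not tested. The blocked fit changed no other genotype or tissue count in members.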

Other observations

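Further gene lists were counted in the members, and none had a gene that passed in the mean effect of genotype or of tissue. Of the inflammatory chemokine and cytokine genes, 5 of 5 tested lay above 0 in Xbp1-KO members, with a median log2 fold change of 0.77 against 0.05 over all genes. Socs3, a feedback inhibitor of cytokine receptors, stood at 1.07 ± 0.41 and Nfkbia, the inhibitor of NF-kappaB, at 0.77 ± 0.31 (edgeR, adjusted p 0.998 for both). Socs3 stood at 232, 431, 494 and 365 CPM in the peripheral WT, mesenteric WT, peripheral Xbp1-KO and mesenteric Xbp1-KO members of library 1 and at 285, 604, 1686 and 681 CPM in those of library 2. Cxcl9, an interferon-induced chemokine, had the highest fitted value of the list, 4.68 ± 1.38 (edgeR, adjusted p 0.998), and stood at 0, 35.2, 247 and 338 CPM in the peripheral WT, mesenteric WT, peripheral Xbp1-KO and mesenteric Xbp1-KO members of library 1 and at 0, 0, 0 and 58.3 CPM in those of library 2.

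Of the antigen presentation and interferon genes, 6 of 12 tested lay above 0 in Xbp1-KO members (median -0.02). Cd74, the invariant chain of MHC class II, was the lowest at -2.73 ± 0.97 (edgeR, adjusted p 0.998), and stood at 256, 106, 22.5 and 374 CPM in the peripheral WT, mesenteric WT, peripheral Xbp1-KO and mesenteric Xbp1-KO members of library 1 and at 5276, 137, 0 and 238 CPM in those of library 2. The peripheral WT pool of library 2 is the 2-cell pool, where the haematopoietic markers summed to 2424 CPM, and their part was not tested. Of the flow-responsive genes 6 of 10 lay above 0 (median 0.05), of the BMP and TGF-beta genes 6 of 10 (median 0.14), of the VEGF, angiopoietin and apelin receptors 4 of 8 (median 0.12) and of the capillary lipid genes 5 of 8 (median 0.26). Between tissues the same lists had 8 of 10, 5 of 10, 6 of 8 and 4 of 8 above 0, that is higher in peripheral members, with medians from -0.04 to 0.08. Bmp4 had the highest tissue value among them at 1.22 ± 0.58 (edgeR, adjusted p 0.981), and the Cytl1 cells that held most Bmp4 made up 13 of 35 peripheral against 18 of 100 mesenteric members.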
